A study of Mus musculus with 3 samples.

Results

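H2-K1, H2-D1, B2m, Tap1, Tap2, Tapbp, Psmb8, Psmb9, Psme2 and Nlrc5 encode parts of the pathway that displays peptides from inside a cell on major histocompatibility complex (MHC) class I molecules. These 10 of the 32285 genes in the deposited tables were chosen by name for their roles, with earlier results of these data known. All 10 were found there by symbol. H2-K1 and H2-D1 are class I heavy chains, and B2m is beta-2 microglobulin, the light chain they share. Tap1 and Tap2 form the transporter that moves peptides into the endoplasmic reticulum, and Tapbp (tapasin) holds an empty class I molecule beside it. Psmb8 and Psmb9 are catalytic subunits of the immunoproteasome, Psme2 is a subunit of the PA28 activator of the proteasome, and Nlrc5 is a transcriptional regulator of class I genes. The finished complex is read at the cell surface by CD8 T cells and natural killer cells. In the healthy brain, vascular cells and microglia are known to carry more of it than neurons do, and interferons are known to raise many of its genes.

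The study asked how brain cells respond to a transient ischemic attack (TIA), modelled by occluding the middle cerebral artery for 5 min with a filament. Live cells of WT C57BL6J mice, 10 to 12 weeks of age according to the methods, were profiled with the 10x Genomics 3′ assay, which counts transcripts as unique molecular identifiers (UMIs). There was 1 library from naive mice without surgery, 1 at 24 h and 1 at 3 d after TIA (ipsilateral hemisphere), each a pool of 3 mice. White matter and meninges had been removed, the tissue had been digested with papain, and propidium iodide-negative cells had been sorted. The treatment labels of the TIA libraries read post stroke, whereas the study describes them as TIA. Anaesthesia, surgery and occlusion cannot be told apart in a comparison with naive mice, and both times share the same naive library. There are no replicates, so no test was made, and every interval below is a 95% interval for counting error that does not cover differences between mice.

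The naive library held 4804 cells and 37987228 UMIs, the 24 h library 1619 cells and 12919691 UMIs, and the 3 d library 5505 cells and 48636436 UMIs. After cells with fewer than 500 genes or more than 7% mitochondrial UMIs had been left out, 4018, 1225 and 4781 cells remained. Cell barcodes present in 2 libraries numbered 15. Doublets, which are droplets with more than 1 cell, numbered 122 in the naive library, 6 at 24 h and 140 at 3 d, or 3.04%, 0.490% and 2.93% of the kept cells. The 24 h library thus stood apart in having few called doublets, and sums below are also given without doublets where that matters.

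Clusters were named from marker genes, and 6 cell classes had at least 50 cells in every library. They were microglia (1026 naive cells, 284 at 24 h and 1274 at 3 d), astrocytes (893, 238 and 1428), oligodendrocytes (232, 72 and 249), endothelial cells (314, 236 and 624), pericytes (159, 182 and 328) and neuroblasts (795, 112 and 375). Neuroblasts, immature neurons marked by Dcx, Sox11 and Dlx genes, were the neuronal class with enough cells. In each of these classes every marker of the class was detected in all 3 libraries. UMIs of a gene were summed over the cells of a class and scaled to counts per 1000000 UMIs of that class (CPM).

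Endothelial cells and microglia held the most transcripts of the pathway. In the naive library the CPM of the 10 genes summed to 2341 in endothelial cells, 1957 in microglia, 602 in pericytes, 214 in astrocytes, 130.4 in neuroblasts and 108 in oligodendrocytes. Each neighbour in that order differed beyond counting error. At 24 h the sums were 2204 in microglia, 2069 in endothelial cells, 831 in pericytes, 234 in astrocytes, 107 in oligodendrocytes and 60.7 in neuroblasts. At 3 d they were 2111, 1729, 668, 239.5, 179 and 107 in the same order of classes. Microglia and endothelial cells thus changed places after TIA, while pericytes and astrocytes kept the middle of the order. Oligodendrocytes and neuroblasts also changed places, but without doublets their naive sums were 91.9 (Poisson interval 81.4 to 103) and 85.2 (77.5 to 93.4) CPM, so that neuroblasts were not the higher class. B2m made up 51.8% of the members' UMIs in naive microglia and 32.8% in naive endothelial cells, and the activator subunit Psme2 made up 31.1% in naive neuroblasts. These shares compare counts from the 3′ ends of transcripts.

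**Figure D1:**
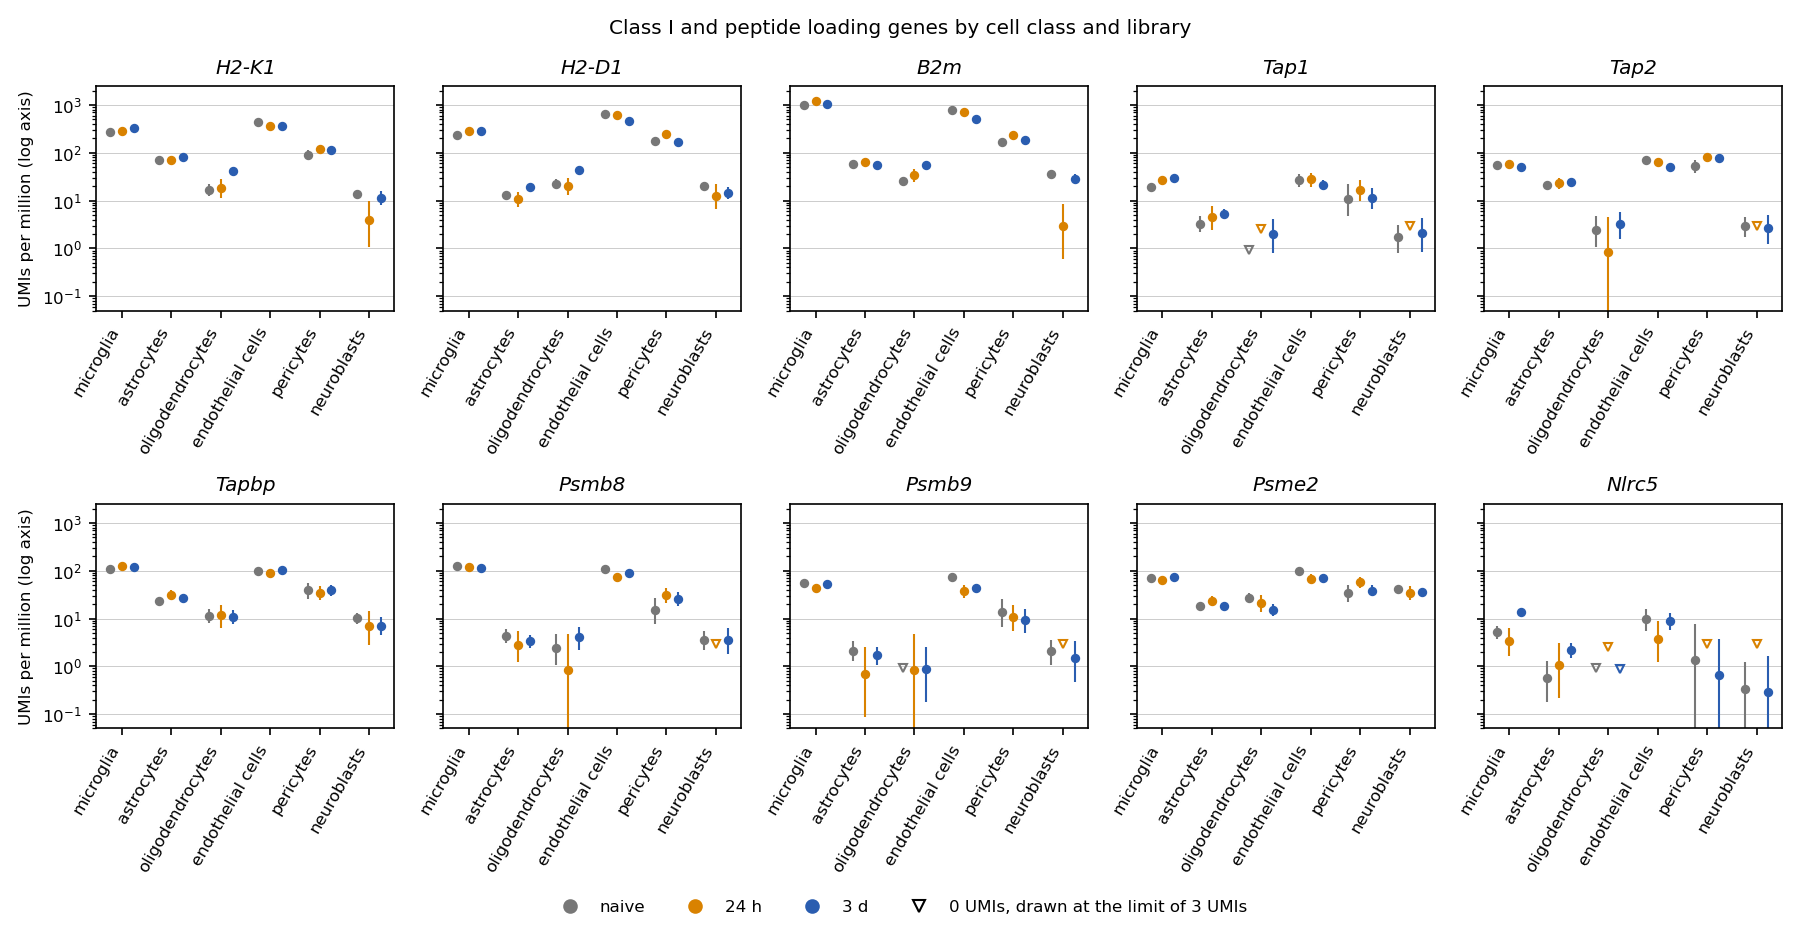
Level of each of the 10 genes in 6 cell classes, in CPM on a log axis. Circles are the naive, 24 h and 3 d libraries with 95% Poisson intervals, and open triangles mark 0 UMIs, drawn at the level that 3 UMIs would give. Endothelial cells and microglia are highest for most genes, and Psme2 differs least between classes.

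The heavy chain gene H2-K1 was highest in endothelial cells, at 442 CPM in the naive library, 369 at 24 h and 369 at 3 d. Microglia had 267, 284 and 333 CPM, and the log2 ratio to naive was 0.09 (-0.02 to 0.21) at 24 h and 0.32 (0.25 to 0.40) at 3 d. Pericytes had 89.8, 118 and 112 CPM and astrocytes 69.4, 71.8 and 81.6 CPM. These classes came next in the order, and in the naive library they did not differ from each other beyond counting error. Oligodendrocytes had 16.7, 18.3 and 42.5 CPM and neuroblasts 13.5, 3.91 and 11.5 CPM. The naive values of this last pair did not differ beyond counting error either, whereas those at 24 h and 3 d did. Without doublets the naive values were 14.3 CPM in oligodendrocytes and 4.94 CPM in neuroblasts.

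H2-D1, the other heavy chain gene, had a different order, with astrocytes among the lowest classes. Endothelial cells had 641 CPM in the naive library, 613 at 24 h and 455 at 3 d, with a log2 ratio of -0.07 (-0.20 to 0.07) at 24 h and -0.50 (-0.61 to -0.38) at 3 d. Microglia had 238, 288 and 291 CPM, and pericytes 174, 248 and 165 CPM. In pericytes the 24 h library was the high one, with a log2 ratio of 0.51 (0.20 to 0.83). Oligodendrocytes had 22.5, 20.0 and 44.2 CPM, neuroblasts 20.5, 12.7 and 14.5 CPM and astrocytes 13.2, 10.9 and 19.2 CPM. Neuroblasts did not differ from oligodendrocytes in the naive library, nor from astrocytes at either time after TIA.

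The balance of these heavy chain genes set astrocytes apart. H2-K1 made up 84.0% (exact binomial interval 81.2 to 86.6) of the UMIs of H2-K1 and H2-D1 in naive astrocytes, 86.8% (81.8 to 90.9) at 24 h and 81.0% (78.8 to 83.0) at 3 d. In microglia it made up 52.9%, 49.6% and 53.4%, and in endothelial cells 40.8%, 37.6% and 44.8%. Naive pericytes had 34.0% (27.3 to 41.2), an interval that overlaps those of endothelial cells, neuroblasts and oligodendrocytes. The intervals of astrocytes did not overlap those of the 5 other classes in any library. The part of RNA carried over from other cells was not tested. H2-K1, H2-D1 and their relatives share much sequence, and reads that fit more than 1 of them are not among such counts.

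**Figure D2:**
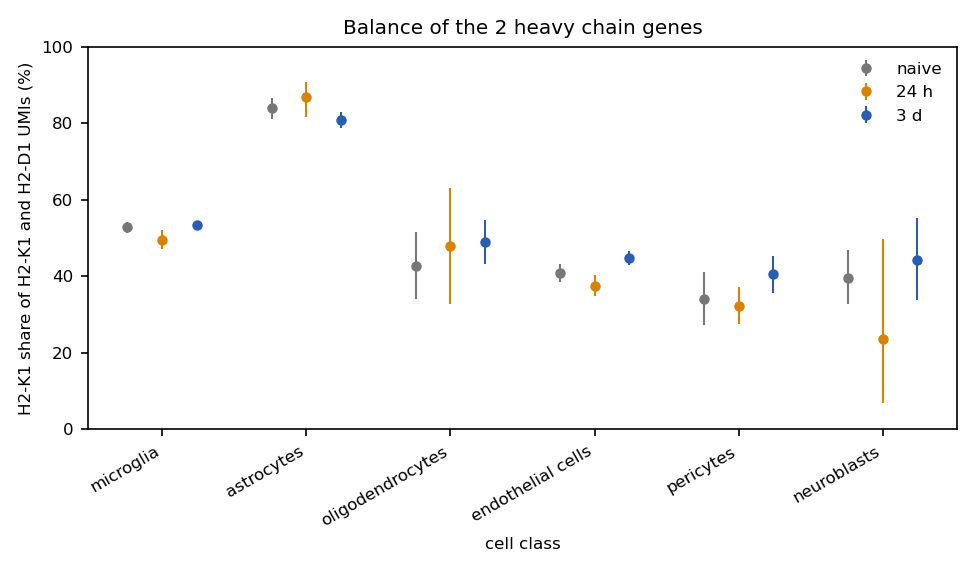
Share of H2-K1 in the UMIs of H2-K1 and H2-D1 in percent, by cell class, for the naive, 24 h and 3 d libraries with exact 95% binomial intervals. Astrocytes lie at 81.0% or above in each library and the other classes at 53.4% or below.

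The light chain gene B2m had its highest level in microglia, at 1013 CPM in the naive library, 1189 at 24 h and 1038 at 3 d. The log2 ratio was 0.23 (0.17 to 0.29) at 24 h and 0.03 (-0.01 to 0.07) at 3 d. Endothelial cells had 768, 724 and 520.4 CPM, with log2 ratios of -0.08 (-0.21 to 0.04) and -0.56 (-0.67 to -0.45). In endothelial cells both B2m and H2-D1 were therefore lower beyond counting error at 3 d but not at 24 h. Pericytes had 171, 233 and 188 CPM, astrocytes 58.7, 64.4 and 56.4 CPM, and oligodendrocytes 25.2, 34.1 and 56.4 CPM. Neuroblasts had 35.2 CPM of B2m in the naive library, 2.94 at 24 h and 29.0 at 3 d, where the 24 h value is 3 UMIs.

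Among the genes of peptide transport, Tap1 was just past 1.5-fold in microglia at 3 d and Tap2 was not, and the difference between the genes was not tested. Tap1 had 19.5 CPM in naive microglia, 26.7 at 24 h and 29.3 at 3 d, with log2 ratios of 0.46 (0.05 to 0.85) and 0.59 (0.32 to 0.86). Tap2 had 55.8, 59.2 and 49.4 CPM in microglia, with log2 ratios of 0.08 (-0.17 to 0.34) and -0.18 (-0.36 to 0.00). In pericytes Tap2 had 52.5, 80.8 and 78.3 CPM, with log2 ratios of 0.62 (0.05 to 1.22) and 0.58 (0.04 to 1.14), and at both times after TIA pericytes had the highest Tap2 level of the 6 classes, although at 24 h they did not differ from endothelial cells beyond counting error. Tap1 in pericytes had 8, 17 and 17 UMIs, and its log2 ratio of 0.60 (-0.69 to 2.02) at 24 h was close to that of Tap2. In endothelial cells Tap2 had 72.2, 64.4 and 50.5 CPM, and Tap1 had 26.8, 28.0 and 21.4 CPM.

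Astrocytes had more Tap2 than oligodendrocytes or neuroblasts. They had 20.8, 22.9 and 24.4 CPM, against 2.43, 0.832 and 3.18 CPM in oligodendrocytes and 2.91, 0 and 2.66 CPM in neuroblasts. For Tap1 astrocytes had 3.27 CPM and neuroblasts 1.71 CPM in the naive library, which did not differ beyond counting error. In oligodendrocytes Tap1 was at 0 UMIs in the naive library and at 24 h, where the Poisson upper limits are 1.12 and 3.07 CPM, and at 7 UMIs at 3 d. The tapasin gene Tapbp had 111, 125 and 119 CPM in microglia, 101, 89.4 and 101 CPM in endothelial cells and 23.7, 31.7 and 26.9 CPM in astrocytes. It was the steadiest of the 10 genes after TIA, with no class and time past 1.5-fold with enough UMIs to be counted.

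The immunoproteasome subunits were almost confined, by level, to microglia and vascular cells. Psmb8 had 123, 119 and 114 CPM in microglia and 107, 72.7 and 87.7 CPM in endothelial cells. Pericytes had 15.2, 31.5 and 25.9 CPM of Psmb8, and the other classes lay between 0 and 4.39 CPM. By CPM, Psmb9 was the only member past 1.5-fold in endothelial cells with enough UMIs to be counted. These cells had 73.5 CPM of it in the naive library, 37.1 at 24 h and 43.5 at 3 d. The log2 ratios were -0.99 (-1.50 to -0.49) and -0.76 (-1.12 to -0.39). In microglia Psmb9 had 55.9, 44.0 and 52.3 CPM, and at 24 h and 3 d microglia and endothelial cells did not differ beyond counting error.

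Psme2, the activator subunit, was spread more evenly over the classes. In the naive library it had 99.7 CPM in endothelial cells, 70.0 in microglia, 40.5 in neuroblasts, 34.5 in pericytes, 27.3 in oligodendrocytes and 18.1 in astrocytes. Neuroblasts, pericytes and oligodendrocytes formed a run of neighbours in which none differed from the next beyond counting error. Oligodendrocytes had 20.8 CPM at 24 h and 15.3 at 3 d, a log2 ratio of -0.84 (-1.35 to -0.33) at 3 d, opposite in sign to that of the heavy and light chains there. The Psme2 ratio in oligodendrocytes was -0.37 with another cell filter and -0.47 in thinned cells, short of the fold. Pericytes had 57.2 and 38.5 CPM, a log2 ratio of 0.73 (0.03 to 1.46) at 24 h.

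The regulator Nlrc5 was scarce in every class. Microglia had 5.19 CPM in the naive library, 3.38 at 24 h and 13.7 at 3 d, from 45, 10 and 154 UMIs. The log2 ratio was -0.62 (-1.77 to 0.39) at 24 h and 1.40 (0.91 to 1.91) at 3 d, the highest value of any member in microglia. Astrocytes had 0.563, 1.06 and 2.19 CPM from 5, 3 and 31 UMIs, with a log2 ratio of 1.96 (0.59 to 3.68) at 3 d. In both classes the 3 d library was the high one. Endothelial cells had 9.58, 3.79 and 8.83 CPM. Nlrc5 was at 0 UMIs in oligodendrocytes in all 3 libraries, where the Poisson upper limits are 1.12, 3.07 and 1.07 CPM.

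**Figure D3:**
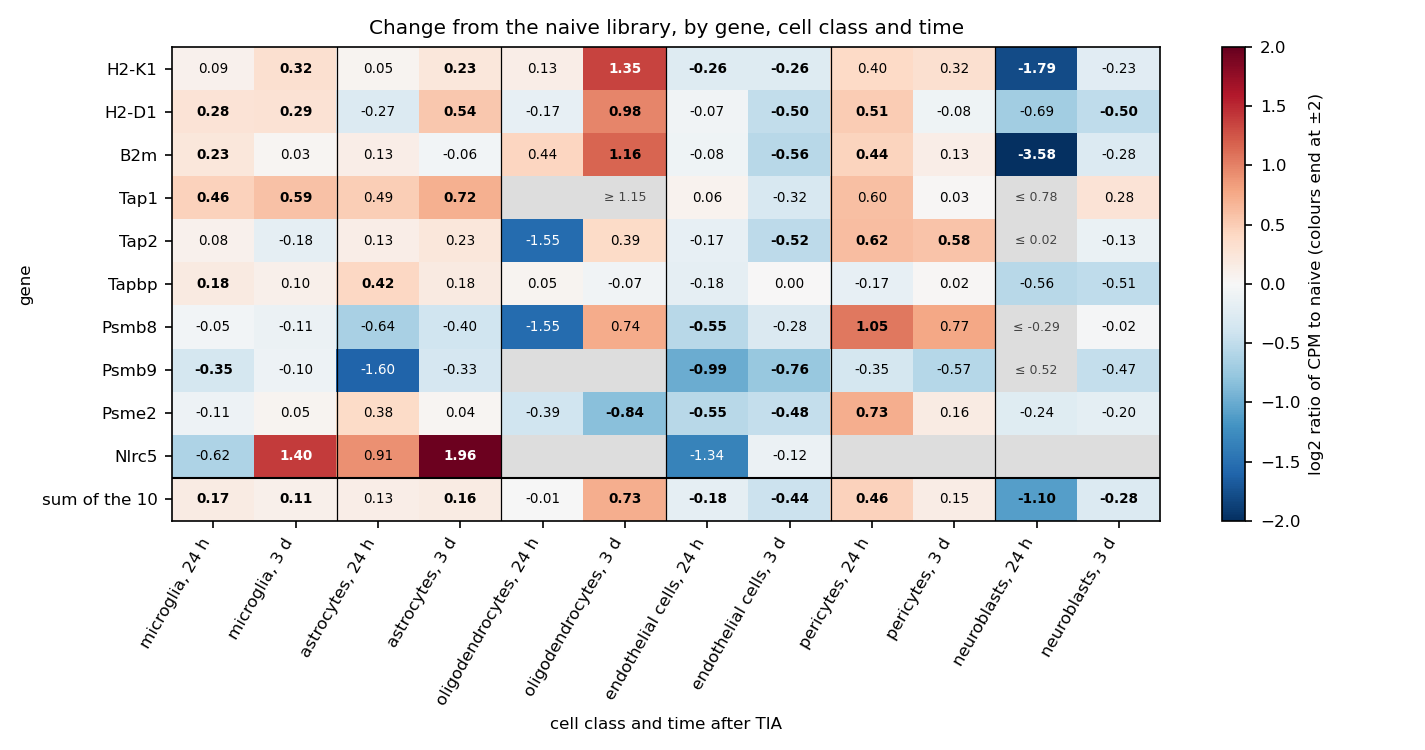
Log2 ratio of CPM to the naive library for each gene and for the sum of the 10, by cell class and time after TIA. Bold values have a 95% counting interval that leaves out 0, grey fields have no ratio or a bound, and colours end at ±2. Endothelial cells are mostly blue at both times, pericytes mostly red at 24 h, and oligodendrocytes are red for H2-K1, H2-D1 and B2m at 3 d.

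Counts of members past a fold were read against all genes. A gene counted as tested with at least 30 UMIs over both libraries and as risen or fallen with a difference of at least 1.5-fold. In microglia at 24 h, 0 of 10 members rose and 1 fell (Nlrc5), beside 8.59% and 6.66% of 11696 genes. Of 10 other ways of processing, 5 kept Nlrc5 in microglia past the fold at 24 h, and its ratio was -0.08 without regression. In microglia at 3 d, 2 of 10 rose (Tap1 and Nlrc5) and 0 fell, beside 5.21% and 3.52% of 12721 genes, where 6 of the 10 kept Tap1 past the fold and 10 kept Nlrc5. In endothelial cells at 24 h, 0 of 9 rose and 1 fell (Psmb9), beside 9.76% and 9.89% of 9039 genes, and at 3 d 0 of 10 rose and 1 fell (Psmb9), beside 13.8% and 3.84% of 10631 genes. Psmb9 in endothelial cells was kept by 10 and 9 of the 10. With median-ratio scaling more endothelial members were past the fold at both times, but the share of all genes was not counted with that scaling. In pericytes 3 of 7 rose (Tap2, Psmb8 and Psme2) and 0 fell at 24 h, beside 9.53% and 8.67% of 7713 genes. Tap2 was kept by 6 of the 10. Psmb8 and Psme2 were kept as calls by 9, all but thinned cells, yet their ratios were not below 0.91 and 0.67 in any of the 10. At 3 d 1 of 7 rose (Psmb8) and 0 fell, beside 15.9% and 6.09% of 8911 genes. That Psmb8 ratio, 0.77 (-0.22 to 1.88) in pericytes, was past the fold in 7 of the 10 and 0.02 in thinned cells. With so few members, most of these counts lie near the background, and those furthest above it are rises in pericytes at 24 h and in oligodendrocytes at 3 d and falls in neuroblasts at 24 h. Without doublets, B2m in oligodendrocytes and H2-K1 and H2-D1 in neuroblasts were not past the fold. That leaves B2m in neuroblasts, which had 3 UMIs at 24 h and whose naive level without doublets was that of microglial markers, as given below.

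In astrocytes 0 of 8 members rose and 1 fell (Psmb8, 39 and 8 UMIs) at 24 h, beside 9.52% and 13.9% of 12664 genes. At 3 d 2 of 10 rose (Tap1 and Nlrc5) and 0 fell, beside 5.14% and 3.56% of 13980 genes. Of the 10 other ways of processing, 8 kept Tap1 in astrocytes past the fold, where thinned cells gave 0.06. The call of Nlrc5 was kept by 7, although its ratio was 1.06 or above in all 10. The Psmb8 value of -0.64 in astrocytes at 24 h had the other sign, 0.76, without doublets. In oligodendrocytes 0 of 5 rose or fell at 24 h, beside 10.4% and 15.3% of 9297 genes. At 3 d 3 of 5 rose (H2-K1, H2-D1 and B2m) and 1 fell (Psme2), beside 10.9% and 4.48% of 10448 genes, and the 10 kept H2-K1 9 times, H2-D1 10, B2m 7 and Psme2 8 times. In neuroblasts at 24 h 0 of 5 rose and 3 fell (H2-K1, H2-D1 and B2m), beside 4.88% and 16.1% of 11488 genes, and the 10 kept H2-K1 7 times, H2-D1 6 and B2m 10 times. At 3 d 0 of 6 rose or fell, beside 3.65% and 5.62% of 12214 genes.

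In endothelial cells the summed members were lower after TIA. Their summed CPM of 2341, 2069 and 1729 gave log2 ratios of -0.18 (-0.25 to -0.11) at 24 h and -0.44 (-0.50 to -0.38) at 3 d, where the median of all tested genes was 0.04 and 0.10. Of the tested members, 4 of 9 at 24 h had an interval below 0 and 0 above, beside 9.95% and 12.1% of all tested genes, and 6 of 10 at 3 d had one below and 0 above, beside 7.41% and 16.9%. Abundant genes have narrower intervals, and by the 1.5-fold rule only Psmb9 fell at either time. With median-ratio scaling more members were past the fold at both times, without a share of all genes to set beside them. The genes with an interval below 0 at 24 h were H2-K1, Psmb8, Psmb9 and Psme2, and H2-D1 and B2m had intervals that include 0 at that time. At 3 d they were H2-K1, H2-D1, B2m, Tap2, Psmb9 and Psme2. The 9 endothelial markers summed to 21805, 23006 and 20924 CPM, and without doublets the log2 ratio of the members was -0.22 and -0.40. Markers of other cells also differed between the libraries in this class. The 8 microglial markers were at 824, 356 and 1034 CPM, with Aif1 at 0 at 24 h. The 8 astrocyte markers, all detected and led by Slc1a2, were at 1176, 596 and 1650 CPM. The 6 erythrocyte markers, led by Hbb-bs, were at 37044, 27.3 and 18533 CPM. The 7 pericyte markers, led by Rgs5, were at 230.0, 233 and 136 CPM, the 11 neuroblast markers, led by Stmn2, at 195, 56.8 and 118 CPM, with Dlx2 and Dlx5 at 0 at 24 h, and the 8 oligodendrocyte markers at 169, 45.4 and 139 CPM. The part of these cells in the lower endothelial members was not tested. Erythrocyte markers were scarcest at 24 h in each of the 6 classes.

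Pericytes, the mural cells of capillaries, had the opposite sign. Their summed CPM of 602, 831 and 668 gave log2 ratios of 0.46 (0.29 to 0.63) at 24 h and 0.15 (-0.01 to 0.31) at 3 d. At 24 h 5 of 7 tested members had an interval above 0, namely H2-D1, B2m, Tap2, Psmb8 and Psme2, and 0 had one below, beside 8.36% and 8.18% of all tested genes. The 24 h value was 0.46 without doublets as well. The 8 microglial markers summed to 402, 293 and 1056 CPM in pericytes, and the 9 endothelial markers, led by Flt1 and with Cdh5 at 0 in the naive and 24 h libraries, to 236, 253 and 259 CPM. The 8 astrocyte markers, led by Slc1a2, were at 746, 166 and 1922 CPM, with Gfap at 0 in the naive library and Aqp4 at 24 h. The neuroblast markers had log2 ratios of -3.56 at 24 h and -2.62 at 3 d in pericytes, and the oligodendrocyte markers -2.53 and -0.54. The smooth muscle markers had 0.05 and -0.42. The erythrocyte markers had 118, 53 and 11869 UMIs. The part of these cells in the pericyte ratios was not tested.

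Microglia had summed CPM of 1957, 2204 and 2111, with log2 ratios of 0.17 (0.13 to 0.21) at 24 h and 0.11 (0.08 to 0.14) at 3 d. Their own 8 markers were at 20563, 17312 and 18302 CPM. The 8 astrocyte markers, led by Slc1a3, were at 376, 426 and 483 CPM in microglia, the 9 endothelial markers, led by Pecam1, at 44.5, 31.8 and 67.9 CPM, and the 7 pericyte markers, led by Vtn, at 11.9, 17.2 and 17.9 CPM, with every marker detected. Other markers were lower after TIA in microglia. The log2 ratios at 24 h and 3 d were -5.88 and -3.53 for erythrocyte, -2.35 and -1.47 for neuroblast and -1.21 and -0.50 for oligodendrocyte markers. The neutrophil markers had 10, 3 and 94 UMIs. The part of these cells in the microglial ratios was not tested. Microglia comprised a larger cluster and a smaller one led by Cxcl10, Ccl12, Tnf and Ccl2, genes of chemokines and an inflammatory cytokine. The smaller cluster held 11.1% (9.25 to 13.2) of naive microglia, 22.9% (18.1 to 28.2) at 24 h and 21.7% (19.5 to 24.1) at 3 d. Its summed CPM was 2931, 2794 and 2937, against 1830.4, 1964 and 1857 in the larger cluster. The log2 ratio of the sum within the smaller cluster was -0.07 (-0.15 to 0.01) at 24 h and 0.00 (-0.06 to 0.07) at 3 d, and within the larger 0.10 (0.05 to 0.15) and 0.02 (-0.01 to 0.05). Single members did not all follow the sum in the larger cluster, where at 3 d H2-D1 had a log2 ratio of 0.18 (0.08 to 0.27) and B2m one of -0.06 (-0.10 to -0.01). The clusters were drawn from the same cells and genes, and the part of their shares in the sum of all microglia was not tested. H2-K1 had 538, 421 and 546 CPM in the smaller cluster and 231, 228 and 267 CPM in the larger, and the rise of Nlrc5 at 3 d was present within both, with log2 ratios of 0.96 (0.22 to 1.78) and 1.01 (0.33 to 1.72).

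Microglia with many transcripts of interferon response genes had more of most members. Among cells thinned to 2000 UMIs, those with at least 10 UMIs from 35 interferon response genes numbered 10 of 1011 naive cells, 2 of 279 at 24 h and 71 of 1264 at 3 d. Thinned counts served only to choose the cells, and the levels use all their UMIs. In the chosen cells at 3 d H2-K1 had 653 CPM against 311 in the other cells (log2 ratio 1.07, 0.93 to 1.21) and Nlrc5 81.2 against 9.20 CPM (3.14, 2.64 to 3.63). Tap2 did not differ beyond counting error (0.19, -0.32 to 0.66). Without these cells the log2 ratio of 3 d to naive microglia was 0.28 (0.20 to 0.36) for H2-K1, 0.56 (0.28 to 0.85) for Tap1 and 1.34 (0.75 to 1.98) for Nlrc5.

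Astrocytes had summed CPM of 214, 234 and 239.5, with log2 ratios of 0.13 (0.00 to 0.26) at 24 h and 0.16 (0.08 to 0.24) at 3 d. The microglial markers were lower after TIA, at 727, 307 and 523 CPM, and without doublets, where they were at 263, 243 and 268.5 CPM, the ratios were 0.34 (0.20 to 0.47) and 0.29 (0.20 to 0.38). The 9 endothelial markers, led by Flt1 in the naive and 3 d libraries, were higher in astrocytes at 3 d, at 19.5, 14.8 and 31.7 CPM with Cdh5 at 0 at 24 h, and at 19.2, 14.9 and 22.1 CPM without doublets. The 6 erythrocyte markers were at 213, 24.6 and 745 CPM in astrocytes. The part of these cells in the astrocyte ratios was not tested. Without doublets H2-D1 in astrocytes had 10.1, 8.88 and 16.4 CPM and rose at 3 d, with a log2 ratio of 0.70 (0.34 to 1.08). Of the 3 astrocyte clusters, the one led by Agt, Igsf1 and Gria1 had the highest ratio of the sum at 3 d, 0.68 (0.40 to 0.98), against 0.27 (0.14 to 0.40) and 0.15 (0.04 to 0.27) in the others. Tap1 in that cluster went from 2 to 21 UMIs, or from 2.74 to 19.5 CPM.

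In oligodendrocytes the summed CPM was 108, 107 and 179, and the log2 ratio at 3 d was 0.73 (0.54 to 0.93). Markers of several other cells were also higher at 3 d, whereas at 24 h, with the sum level, some were lower. The 8 microglial markers, all detected, summed to 402, 380 and 554 CPM, and the 9 endothelial markers to 85.7, 10.8 and 151 CPM, with Slco1a4 and Itm2a at 0 at 24 h. The 7 pericyte markers, led by Vtn, were at 24.6, 8.32 and 103 CPM, with Abcc9 at 0 in the naive library and Abcc9, Rgs5 and Pdgfrb at 24 h. The 8 astrocyte markers were at 451, 219 and 681 CPM, with Aqp4 at 0 at 24 h. The fibroblast markers, a list that includes Apod, had 7938, 7980 and 14668 UMIs in oligodendrocytes, with log2 ratios of 1.46 at 24 h and 0.81 (0.77 to 0.85) at 3 d. These UMIs are not given by gene here and are not read as RNA of fibroblasts, a cluster of 9, 2 and 12 cells. The erythrocyte markers had 21699, 88 and 16895 UMIs, with log2 ratios of -6.49 and -0.43. The part of pericytes, astrocytes, fibroblasts and erythrocytes in the oligodendrocyte ratios was not tested. The 5 oligodendrocytes with most member UMIs held 18.9% of those UMIs in the naive library and 34.5% at 3 d. Without doublets (14 naive cells and 21 at 3 d left out), the microglial markers were at 205, 164 and 204.5 CPM and the endothelial markers at 19.0, 10.2 and 19.2 CPM, level between naive and 3 d. The ratio of the sum at 3 d was then 0.25 (0.02 to 0.49).

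Single genes of the heavy and light chains were also summed without doublets. In these cells H2-K1 in oligodendrocytes had 14.3, 13.6 and 26.6 CPM, and the log2 ratio at 3 d was 0.89 (0.34 to 1.46). H2-D1 had 21.98, 19.6 and 36.0 CPM, with a ratio of 0.71 (0.25 to 1.18). Both were past 1.5-fold in these cells. B2m had 15.7, 20.4 and 21.5 CPM, with a ratio of 0.46 (-0.11 to 1.03), an interval that overlaps those of H2-K1 and H2-D1. In cells thinned to 2000 UMIs the H2-K1 ratio was 0.01, where 12 of 231 naive oligodendrocytes and 12 of 249 at 3 d had a UMI.

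**Figure D4:**
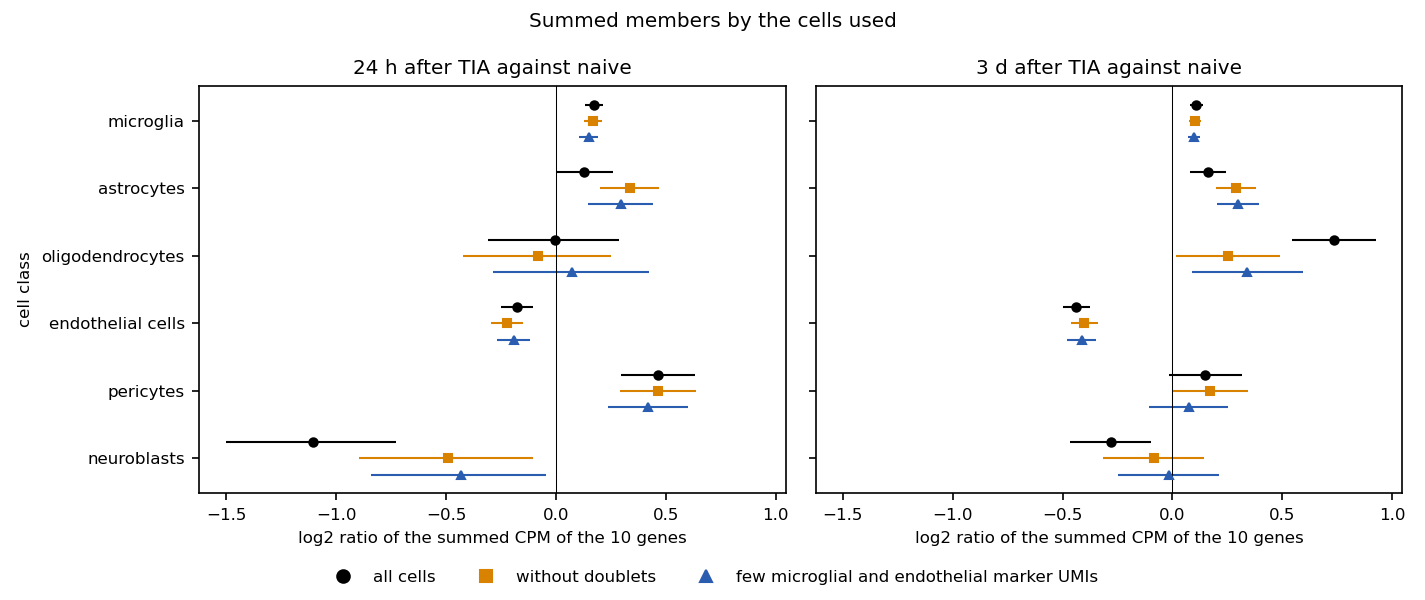
Log2 ratio of the summed CPM of the 10 genes to the naive library at 24 h and 3 d, by cell class, with 95% counting intervals. Circles use all cells, squares leave out called doublets, and triangles use cells with at most 5 UMIs from markers of microglia and endothelial cells. Oligodendrocytes at 3 d move from 0.73 to 0.25 and neuroblasts at 24 h from -1.10 to -0.49 without doublets.

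In neuroblasts the summed CPM was 130.4, 60.7 and 107, with a log2 ratio of -1.10 (-1.50 to -0.73) at 24 h and -0.28 (-0.46 to -0.10) at 3 d. The 8 microglial markers were at 582, 153 and 483 CPM and the 9 endothelial markers at 124, 9.79 and 19.8 CPM, with Cdh5, Kdr and Tek at 0 at 24 h. The 7 pericyte markers were at 55.7, 12.7 and 32.8 CPM, with Abcc9 and Higd1b at 0 at 24 h. The 8 astrocyte markers were at 1119, 577 and 1195 CPM, the 8 oligodendrocyte markers at 164, 68.5 and 94.96 CPM, with Cldn11 at 0 at 24 h, and the 6 erythrocyte markers, led by Hbb-bs, at 2540, 27.4 and 69.8 CPM. The part of these cells in the neuroblast ratios was not tested. Without doublets (41 naive cells, 0 at 24 h and 14 at 3 d left out) the sums were 85.2, 60.7 and 80.3 CPM and the ratios -0.49 (-0.90 to -0.10) and -0.09 (-0.32 to 0.14). H2-K1 was then at 4.94, 3.91 and 6.15 CPM and H2-D1 at 14.4, 12.7 and 11.7 CPM, and neither passed the fold at 24 h. B2m in neuroblasts was at 13.7, 2.94 and 17.2 CPM without doublets, and its ratio at 24 h was -2.22 (-4.53 to -0.62). The 24 h value is 3 UMIs, and the naive level was that of microglial markers in this class, as the next paragraph gives. The part of free RNA in this ratio was not tested.

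Levels in the lowest classes were set beside those of microglial markers, because free RNA gives some UMIs in cells that do not express a gene. In naive neuroblasts without doublets the microglial markers were at 1.33% of their level in microglia, and B2m was at 1.34% (1.05 to 1.69) and H2-K1 at 1.84% (1.20 to 2.70). B2m in neuroblasts was thus at the level of these markers. H2-D1 was at 6.06% (4.77 to 7.58) and Psme2 at 58.1% (50.6 to 66.4), both above it. In naive oligodendrocytes the markers were at 0.993%, B2m at 1.54% (1.13 to 2.04), H2-K1 at 5.34% (3.86 to 7.19) and H2-D1 at 9.22% (7.13 to 11.7). In naive astrocytes the markers were at 1.27%, Psmb8 at 1.37% (0.747 to 2.29), B2m at 3.81% (3.40 to 4.25), H2-K1 at 23.6% (21.6 to 25.7) and Tap2 at 36.8% (31.5 to 42.8). Psmb8 in astrocytes, and in neuroblasts at 1.24% (0.534 to 2.44), had an interval that includes the level of the markers. The intervals of H2-K1 and Tap2 in astrocytes lay above it. Only microglial markers are given here, although endothelial cells had more H2-K1 and H2-D1 than microglia. The part of free RNA in these levels was not tested.

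The share of cells with a UMI gave the same picture of widespread transcripts in microglia and endothelial cells. After thinning to 2000 UMIs per cell, at least 1 member UMI was found in 95.9% of naive microglia, 95.1% of endothelial cells, 70.3% of pericytes, 33.4% of astrocytes, 19.9% of oligodendrocytes and 15.2% of neuroblasts. For B2m the shares were 81.9% in microglia and 3.98% in neuroblasts, taken as background for this gene, with median depths of 7856 and 7133 UMIs per cell before thinning. For H2-K1 they were 39.6% in microglia, 12.6% in astrocytes and 1.78% in neuroblasts. Without thinning, H2-K1 was found in 78.1% of naive microglia, 43.2% of astrocytes and 6.04% of neuroblasts.

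Other genes of the pathway, from lists chosen with the members, were counted by the same rule and are read beside the shares of all genes given above. Of 7 further loading and immunoproteasome genes, 4 fell and 0 rose in endothelial cells at 24 h, with a median log2 ratio of -0.59, beside 9.89% and 9.76% of all genes. Among them were Psmb10, another catalytic subunit of the immunoproteasome (121 to 70.4 CPM, log2 ratio -0.79, -1.16 to -0.42), and Erap1, the peptidase that trims peptides in the endoplasmic reticulum (51.1 to 33.3 CPM, -0.62, -1.18 to -0.07). At 3 d 2 of the 7 fell, Psmb10 and the chaperone gene Calr. Psmb10 fell beside Psmb9, and the third catalytic subunit gene, Psmb8, had a log2 ratio of -0.55 (-0.93 to -0.18) at 24 h. Of 16 genes of the constitutive proteasome, 0 rose or fell in endothelial cells at either time, and the median was 0.06 at 24 h and -0.20 at 3 d. In pericytes at 24 h, where the summed members were higher, 6 of the 7 further loading and immunoproteasome genes were tested. Of these 0 rose or fell, with a median of -0.22, beside 9.53% and 8.67% of all genes. The list summed to 1038 CPM in naive pericytes and 811 CPM at 24 h.

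Interferon response genes fell more often than they rose at 24 h in microglia, endothelial cells, pericytes, astrocytes and neuroblasts. In astrocytes and neuroblasts all genes also leaned to falls, and with 18 and 6 genes tested these counts are not read as a result of the list. Differences between classes were not tested. In microglia at 24 h 2 of 31 tested rose and 12 fell (median -0.22), and at 3 d 24 of 35 rose and 1 fell (median 0.80), beside 6.66% of all genes fallen at 24 h and 5.21% risen at 3 d. Examples at 3 d were Ifi204, a DNA sensor (8.995 to 44.0 CPM, log2 ratio 2.29, 1.94 to 2.65), and Oasl2 (4.84 to 21.6 CPM, 2.16, 1.68 to 2.66). In endothelial cells 16 of 30 fell and 1 rose at 24 h (median -0.60), among them Isg15, a ubiquitin-like protein (265 to 115 CPM, -1.20, -1.48 to -0.93), and at 3 d 11 of 31 fell and 0 rose (median -0.37), beside 9.89% and 3.84% of all genes fallen. In astrocytes 3 of 18 rose and 5 fell at 24 h, beside 9.52% and 13.9%, and 10 of 24 rose and 0 fell at 3 d, beside 5.14% and 3.56%. In oligodendrocytes 1 of 5 rose and 1 fell at 24 h, beside 10.4% and 15.3%, and 5 of 10 rose and 0 fell at 3 d, beside 10.9% and 4.48%. In neuroblasts 0 of 6 rose and 2 fell at 24 h, beside 4.88% and 16.1%, and 2 of 11 rose and 2 fell at 3 d, beside 3.65% and 5.62%. In pericytes 2 of 14 rose and 5 fell at 24 h, beside 9.53% and 8.67%, and 6 of 18 rose and 0 fell at 3 d, beside 15.9% and 6.09%.

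Of 17 tested genes of interferon receptors and signalling, 1 rose and 3 fell in endothelial cells at 24 h, beside 9.76% and 9.89% of all genes. Those that fell included Irf1, a transcription factor of the interferon response (86.9 to 41.7 CPM, log2 ratio -1.06, -1.54 to -0.60). In microglia at 3 d 1 of 20 rose, Stat2 (20.6 to 39.0 CPM, 0.92, 0.66 to 1.18), and 0 fell, a share near the 5.21% of all genes. Of 12 tested nonclassical class I and class I-like genes in microglia, 0 rose and 2 fell at 24 h and 1 rose and 0 fell at 3 d, beside 8.59% and 6.66% of all genes at 24 h and 5.21% and 3.52% at 3 d, which so few genes do not depart from clearly. Of the class II genes, which present peptides to CD4 T cells, 4 of 6 fell in microglia at 24 h and at 3 d and 0 rose, beside 6.66% and 3.52% of all genes fallen. The class II gene H2-Aa had 34.3 CPM in naive microglia, 1.01 at 24 h and 2.58 at 3 d. The 7 markers of monocytes and dendritic cells were at 17.2, 10.8 and 13.9 CPM in microglia, with Ly6c2, Cd209a and Chil3 at 0 in the naive and 24 h libraries, and their part in the class II values was not tested.

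Genes with the most similar pattern were sought over the 18 sums of 6 classes and 3 libraries, which share libraries and cells. Of 15464 genes with enough UMIs, the 10 with the highest Pearson correlation of log2(CPM + 1) with the summed members were H2-M3 (r = 0.986), Bst2 (0.978), Il10rb (0.978), Trim56 (0.977), Irgm2 (0.975), Tgfbr2 (0.974), Klhl6 (0.971), Trim5 (0.969), Anxa3 (0.969) and Parp10 (0.968). These values mostly describe the order of the classes. Among the members, Psmb8 followed the sum of the other members most closely (r = 0.982) and Psme2 least (0.752).

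The members lie at few places in the genome (GRCm38, GENCODE release M21). Of the 10, 7 are on chromosome 17 within 1351601 bases, from Tapbp (chr17:33915899-33929292) over H2-K1 (chr17:33996017-34000347) to H2-D1 (chr17:35262730-35267499). Psmb9 (chr17:34181987-34187764), Tap1 (chr17:34187553-34197225), Psmb8 (chr17:34197721-34201454) and Tap2 (chr17:34203527-34216321) sit side by side within 34335 bases, and Psmb9 overlaps Tap1 on the opposite strand. In endothelial cells at 24 h the log2 ratios of these neighbours were -0.99 for Psmb9, 0.06 (-0.62 to 0.74) for Tap1, -0.55 for Psmb8 and -0.17 (-0.59 to 0.25) for Tap2, and differences between the genes were not tested. B2m is at chr2:122147686-122153083, Psme2 at chr14:55587441-55591113 and Nlrc5 at chr8:94434356-94527272.

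Promoters were taken from RefSeq (GRCm38.p6) for 8 of the 10 members, in 10 windows of 300 bases that run from 250 bases before the start of the gene to 50 after it, and Tap2 and Nlrc5 were not matched. The starts are those of RefSeq, and several of them, such as those of H2-D1, Tapbp, Psmb8 and Psmb9, lie inside the gene spans given above. The stretches of the heavy and light chain genes are shown. Capitals mark matches, on either strand, to the NF-kappaB consensus and to AANNGAAA, the core bound by interferon regulatory factors, and in B2m to its longer form GAAANNGAAA, the interferon-stimulated response element, which contains the core. The stretch of H2-K1 is chr17:34000348-34000597 (minus strand), that of H2-D1 chr17:35262923-35262951 (plus strand) and that of B2m chr2:122147437-122147685 (plus strand).
H2-K1: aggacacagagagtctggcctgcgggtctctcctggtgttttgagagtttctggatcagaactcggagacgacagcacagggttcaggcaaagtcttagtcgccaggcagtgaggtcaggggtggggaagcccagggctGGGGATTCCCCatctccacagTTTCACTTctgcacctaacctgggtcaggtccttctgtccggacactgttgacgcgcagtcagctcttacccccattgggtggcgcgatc
H2-D1: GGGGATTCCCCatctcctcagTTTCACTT
B2m: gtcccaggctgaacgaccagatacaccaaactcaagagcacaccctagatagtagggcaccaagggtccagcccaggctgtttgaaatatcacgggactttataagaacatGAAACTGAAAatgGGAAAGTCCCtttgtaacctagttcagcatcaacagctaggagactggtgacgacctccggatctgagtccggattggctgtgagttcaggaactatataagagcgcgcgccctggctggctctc
H2-K1 and H2-D1 were identical at 82.8% of 204 aligned promoter bases. All 3 genes held a match to the NF-kappaB consensus and to AANNGAAA, which 8.46% and 23.9% of the 32851 promoter windows hold. GAAANNGAAA was found in B2m alone among the members and in 3.44% of all windows. TTCNNNGAA, the interferon gamma activated sequence, was found in Psmb8 alone among the members and in 8.30% of all windows. CCAAT was found in 6 members (H2-K1, H2-D1, B2m, Tap1, Tapbp and Psmb9) and in 37.4% of all windows, and TGACG in 6 members (H2-K1, H2-D1, B2m, Tap1, Psmb9 and Psme2) and in 20.8%. Such a match is a run of letters and does not show that a factor was bound.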

How the data were processed

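The authors counted UMIs with Cell Ranger on mm10 with GENCODE vM23, and the deposited tables hold whole counts per gene and cell barcode without normalization. The labels name Cell Ranger 3.1.0, which differs from the version in the file headers. Genes in at least 3 cells were kept, 2000 variable genes were scaled with UMI number and mitochondrial share regressed out, and 20 principal components were clustered at resolution 0.5 in Seurat 5.3.0 (R 4.3.3), which gave 14 clusters. A cluster was named after the type with most markers found in at least 10% of its cells and at least 2-fold above other clusters, and a cluster with neuroblast markers, Top2a and Mki67 was named dividing progenitors. Of the 3 left unnamed, 1 had fewer than 3 such markers, 1 had low depth and no marker of its type among its 10 leading genes, and 1 had more markers of another type among them. Scrublet, run in scanpy 1.11.5, called the doublets.

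UMIs per class and library were scaled to 1000000. Levels have exact Poisson intervals, shares exact Clopper-Pearson intervals and ratios exact conditional binomial intervals, all at 95% and for counting error only. A library at 0 UMIs was set to 3 UMIs, so that the ratio becomes a bound, and pairs with both libraries at or under 3 have none. The members, gene lists and markers were chosen with earlier results of these data known. From each list, at most the 3 largest and 3 smallest log2 ratios past 1.5-fold were eligible to be named in each class and time. The other genes named from lists (Psmb8 beside Psmb10) are members. The ratio and its interval were tested on simulated data. Alternatives were removing doublets, another cell filter, clustering without regression or without list genes, resolutions of 0.2 and 1, median-ratio scaling, cells with few UMIs from other classes' markers, thinned cells, leaving out the 5 cells with most member UMIs, leaving out B2m, a fold of 2 and a minimum of 100 UMIs.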

Additional observations from a re-analysis of the deposited data

Results flagged for a closer look

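The log2 ratio of the summed members to the naive library had opposite signs in different cell classes, each with a counting interval that leaves out 0. At 24 h it was 0.17 in microglia and 0.46 in pericytes, against -0.18 in endothelial cells and -1.10 in neuroblasts. At 3 d it was 0.11 in microglia, 0.16 in astrocytes and 0.73 in oligodendrocytes, against -0.44 in endothelial cells and -0.28 in neuroblasts. Without doublets the ratio was -0.49 in neuroblasts at 24 h and -0.09 (-0.32 to 0.14) at 3 d, and 0.25 in oligodendrocytes at 3 d. With 1 library per condition the difference between classes was not tested. Several of these ratios came with different amounts of marker UMIs of other cells, among them microglial and endothelial markers in oligodendrocytes and neuroblasts, endothelial markers in astrocytes at 3 d (log2 ratio 0.70, 0.44 to 0.96) and microglial markers in endothelial cells at 24 h (-1.21, -1.37 to -1.06). The part of those cells or of free RNA was not tested beyond the sums without doublets and in cells with few marker UMIs.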

How the results depend on the processing

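Over 11 alternatives, 105 of 132 values of the summed ratio stayed within the counting interval of the result, 27 left it and 0 reversed, which means that no sum with an interval on 1 side of 0 took the other sign. The sign held under all 11 in every class and time except oligodendrocytes at 24 h (8 of 11, from -0.23 to 0.12). The range was 0.10 to 0.26 in microglia at 24 h, 0.40 to 0.47 in pericytes at 24 h and -0.54 to -0.38 in endothelial cells at 3 d. The cause was not tested for the values that follow. Without doublets the ratio was 0.34 and 0.29 in astrocytes at 24 h and 3 d, 0.25 in oligodendrocytes at 3 d, and -0.49 and -0.09 in neuroblasts. In cells with at most 5 UMIs from markers of microglia and endothelial cells, an alternative chosen after seeing the data, these were 0.29, 0.30, 0.34, -0.43 and -0.02. In thinned cells the ratio was 0.26 in microglia, 0.43 in astrocytes, -0.34 in endothelial cells and -0.49 in neuroblasts at 24 h, and 0.28 in oligodendrocytes and -0.05 in neuroblasts at 3 d. With median-ratio scaling it was 0.12 and 0.05 in microglia and -0.54 in endothelial cells at 3 d. Without B2m it was 0.10 and 0.19 in microglia and -0.72 in neuroblasts at 24 h. Without the 5 cells with most member UMIs it was 0.43 in oligodendrocytes at 3 d. In endothelial cells at 24 h it was -0.27 with the other cell filter, at resolution 1 and with list genes left out, and -0.28 without regression. The ratio of Psmb8 in astrocytes at 24 h reversed to 0.31 with the other cell filter, 0.76 without doublets and 0.82 in cells with few marker UMIs, and the cause was not tested.

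At a fold of 2, which counts fewer members by construction, the counts were 0 and 1 in microglia at 24 h and 3 d, 0 and 1 in astrocytes, 2 in oligodendrocytes at 3 d, 0 and 0 in endothelial cells, and 1 and 0 in pericytes. With at least 100 UMIs they were 0 in microglia at 24 h, 0 and 1 in astrocytes, and 1 and 0 in pericytes. With median-ratio scaling, chosen after seeing the data for counts, they were 1 in microglia at 3 d and 2 and 4 in endothelial cells. Only counts that changed to or from 0 or by more than 1.5-fold are listed, which were 9, 5 and 3 of 12 under these rules. The shares of all genes under these rules were not counted, so these counts are not read as results about the members. A limit of 1 UMI from other classes' markers left under 50 cells in at least 1 library of each class, so that alternative gave no value. Depth limits Nlrc5, Tap1 and the immunoproteasome genes in oligodendrocytes and neuroblasts, where a count of 0 has an upper limit of 1.12 CPM in naive oligodendrocytes.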

Other observations

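Clusters outside the 6 compared classes also differed in the members. An unnamed cluster of 61 naive cells, 22 at 24 h and 107 at 3 d, led by S100a8, F13a1, Pf4 and class II genes, had summed CPM of 2224, 2579 and 1976, close to microglia, and 13.8, 13.3 and 26.4 CPM of Nlrc5. Dividing progenitors (169, 37 and 175 cells) had 122, 102 and 115 CPM, with 35.3, 50.9 and 32.6 CPM of Psme2. Fibroblasts numbered 9, 2 and 12 cells, with 75, 19 and 57 member UMIs. An unnamed cluster of low depth (289, 23 and 145 cells) had 695, 1153 and 944 CPM, and another unnamed cluster (71, 17 and 64 cells) had 519, 604 and 524 CPM.

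Cells with T cell or natural killer cell markers were scarce. The 7 T cell markers had 175 UMIs in the naive library, 29 at 24 h and 101 at 3 d, and cells with at least 2 of these genes numbered 6, 0 and 3. This list covers T cells of any kind, with Cd8a at 2, 0 and 1 UMIs and Cd4 at 7, 14 and 10. The 7 natural killer cell markers had 229, 12 and 268 UMIs, with 4, 1 and 4 such cells. Of 9 interferon ligand genes, Ifng had 3, 0 and 4 UMIs, Ifnb1 had 0, 0 and 1, and Ifnk had 12, 3 and 16, and the others were at 0 in all 3 libraries.

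Each library is 1 pool of 3 mice, so differences between mice, batches and times cannot be told apart. The 24 h library had the fewest cells and the lowest share of called doublets. The counts come from dissociated and sorted live cells, so RNA made during digestion and the loss of fragile cells were not measured. Mature neurons were not compared. Transcript counts do not measure class I protein at the cell surface. Reads that fit several class I genes, or both Psme2 and its close copy Psme2b, are not counted. Levels and shares of different genes, such as the H2-K1 share, therefore compare counts and should not be read as amounts of RNA.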
